A study of Homo sapiens with 20 samples.

Results

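MDA-MB-231 cells, an established human breast cancer line of mesenchymal, triple-negative type, were profiled by 3' end mRNA sequencing in 20 libraries, and the 10 libraries numbered 3 or 4 are set here against the 10 numbered 1 or 2. The numbers come from the sample titles, and each of the 5 treatment groups holds 2 libraries of each pair, so all 20 libraries of the series enter the comparison with treatment held constant. The groups are untreated cells, cells given biomimetic photothermal nanoparticles (0.1 mg/ml in 200 µl of medium for 4 h) with no laser, and cells given the same particles followed by an 808 nm laser for 10 min that held them at 46, 50 or 54 °C. All cells were plated at 30000 per well, grown for 24 h at 37 °C, and pooled from 2 wells per RNA sample. A group with light and no particles was not analysed here. The division of the numbers into pairs was found in these same counts: the labels say neither that the replicates were separate cultures nor what libraries 1 and 2, or 3 and 4, have in common. The p-values printed for other comparisons reflect the spread among samples alone, and that spread may be technical. Every value of the comparison between the pairs is a description, printed with no p, and what lies behind the division was not tested.

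Some of the genes that separated the pairs belong to known programs, which are outlined here as background. No set test was run on them. When charged tRNAs run short or the initiation factor eIF2 is phosphorylated, translation of the transcription factor ATF4 goes up, and ATF4 with C/EBP partners turns on ASNS, amino acid transporters and tRNA synthetases through C/EBP-ATF response elements. TGF-beta and activin signal through SMAD proteins, and follistatin, the product of FST, binds and blocks activin. IL-6 and IL-11 signal through the shared receptor gp130 to STAT3, and with CXCL8 they are among the cytokines that mesenchymal breast cancer cells are known to secrete, under control of NF-kB and AP-1 factors.

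Short stretches upstream of 4 of these genes are shown because their letters hold a match to a motif searched here. They are RefSeq sequences (GRCh38.p14), read 5′ to 3′ on the gene's strand, with the match in capitals. Searched on both strands in the 250 bases before each start were TGATGNAA, the core of the C/EBP-ATF response element, and TGANTCA, the AP-1 element; each motif was counted on its own, whether or not it overlapped the other. The ASNS stretch lies at chr7:97872458-97872487 (minus strand), with its match starting 68 bases upstream. That of IL11 lies at chr19:55370541-55370570 (minus strand, 96 bases upstream), that of FST at chr5:53480458-53480487 (plus strand, 160 bases) and that of CXCL8 at chr4:73740421-73740450 (plus strand, 137 bases). In GENCODE v29 the ASNS and FST stretches overlap an annotated exon of the same gene.
ASNS: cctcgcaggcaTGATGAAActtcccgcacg
IL11: ggcagggagggTGAGTCAggatgtgtcagg
FST: gaaatgtcaccTGATTCAcactgaactttt
CXCL8: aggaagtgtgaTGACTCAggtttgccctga

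The IL11 promoter is given whole, since IL11 is the first of the genes that marked the comparison. It covers chr19:55370464-55370713 and ends at the base before the RefSeq start, and the capitals again mark the AP-1 letters.
IL11 upstream: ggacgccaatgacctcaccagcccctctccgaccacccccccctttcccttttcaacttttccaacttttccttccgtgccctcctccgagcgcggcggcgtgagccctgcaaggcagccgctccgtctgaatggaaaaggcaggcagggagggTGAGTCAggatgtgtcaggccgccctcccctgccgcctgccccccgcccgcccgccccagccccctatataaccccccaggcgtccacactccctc

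A promoter was matched for 9724 of the 12149 tested genes. The C/EBP-ATF core was found in 1.5% of 401 promoters of genes called higher in replicates 3 and 4, in 1.89% of 476 of genes called lower, and in 1.33% of all. Among amino acid enzymes it was found in 3 of 11 promoters, among tRNA synthetases in 2 of 17, among amino acid transporters in 1 of 11 and among NF-kB genes in 0 of 14. ATF3, called lower, had a match as well. TGANTCA was found in 4.24%, 3.78% and 3.82% of the same 3 sets. In the same 4 lists it was found in 0 of 11, 0 of 17, 2 of 11 and 2 of 14 promoters. The shares among called genes lay close to those of all genes for both motifs, and a match is a description of letters only.

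IL11 encodes a gp130 cytokine that TGF-beta induces and that has been linked to bone metastasis of breast cancer. The gene lies on chromosome 19 at 55364389 to 55370463 (GENCODE v29, GRCh38). Its CPM (TMM-scaled counts relative to library size) in replicates 1 and 2 had a lowest value of 237, a median of 301 and a highest of 447; in replicates 3 and 4 these were 81.3, 125 and 211. Both libraries 3 and 4 were below both libraries 1 and 2 in each of the 5 groups, and the 10 and 10 values did not overlap. The log2 difference (replicates 3 and 4 minus 1 and 2, adjusted for treatment) was −1.37 ± 0.08 (SE, n = 10 per pair). By group, mean CPM went from 439.7 to 140.3 in untreated cells, from 386 to 167 with particles alone, from 299 to 134 at 46 °C, from 250.03 to 85.4 at 50 °C and from 267 to 108 at 54 °C. The pair gap was present at each level of treatment.

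ASNS (chromosome 7, 97852118 to 97872542) encodes the enzyme that makes asparagine and is a standard readout of ATF4 activity. Its CPM ran from 41.9 through a median of 52.7 to 74.6 in replicates 1 and 2, and from 108 through 148 to 181 in replicates 3 and 4. Again no value overlapped, here with libraries 3 and 4 on the high side in all 5 groups, and the log2 difference was 1.45 ± 0.10. Inside single groups it was smallest at 46 °C (1.01 ± 0.22) and highest with particles alone (1.73 ± 0.22).

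FST (chromosome 5, 53480409 to 53487134) encodes follistatin. Its lowest, median and highest CPM were 167, 200.0 and 228 in replicates 1 and 2 and 64.6, 93.8 and 103 in replicates 3 and 4, a log2 difference of −1.18 ± 0.09. AKAP12 (chromosome 6, 151239999 to 151358557) encodes a scaffold that anchors protein kinase A at the membrane. It went the other way, with 58.9, 116 and 136 against 158, 245 and 291, a log2 difference of 1.12 ± 0.09. In both genes the pairs were apart in every group with no overlap among the 20 values.

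**Figure D1:**
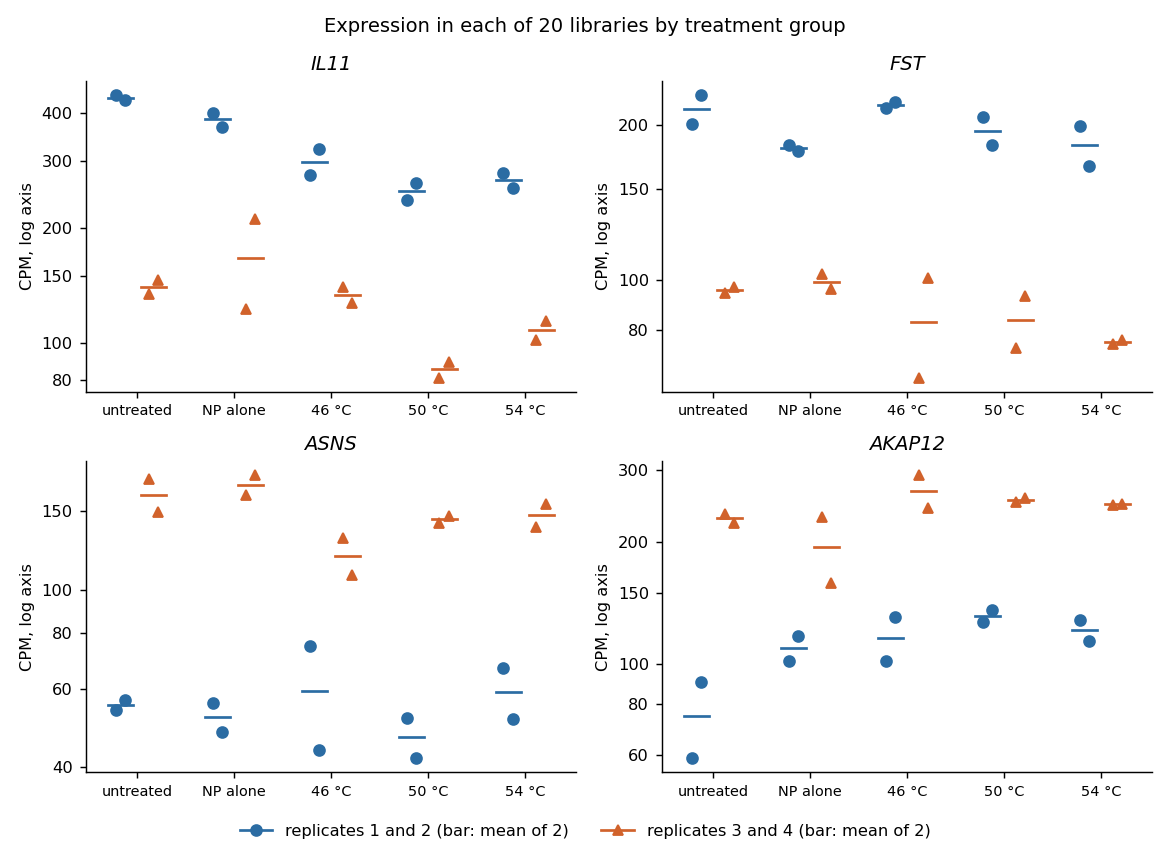
CPM on a log axis (vertical) of IL11, FST, ASNS and AKAP12 in each library, by treatment group (horizontal; NP is nanoparticles). Circles are replicates 1 and 2, triangles replicates 3 and 4, and bars the mean of 2; for IL11 the 10 triangles run from 81.3 to 211 and the 10 circles from 237 to 447, with no overlap, and the other 3 genes are apart in the same way.

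Many other genes differed with these 4. Of 12149 genes with enough counts to be tested, out of 36601 in the table, edgeR's quasi-likelihood test with treatment as a covariate called 1072 between the pairs, which is 8.82% of those tested. Of these, 507 genes (4.17%) were on the higher side in replicates 3 and 4 and 565 (4.65%) on the lower side. Since the pairs were chosen on these counts, nothing is read from the number of calls. Called genes were also more abundant, with a median CPM of 106 for the higher and 85.5 for the lower, against 21.1 for all tested genes. The list counts given further on were not matched for expression. The shares over all tested genes are therefore not an equal background for lists of abundant genes. Most differences were small: the median log2 difference was 0.41 among the higher genes and −0.47 among the lower, and 30 and 39 genes reached 2-fold. In 432 of the higher and 482 of the lower genes the difference had the same sign in all 5 groups. In 108 and 144 of them both libraries 3 and 4 lay beyond both libraries 1 and 2 in all 5 groups, as did 0.914% and 1.19% of all tested genes. In at least 4 groups this held for 381 (3.14%) and 436 (3.59%) of all tested genes. With the 50 °C group left out 334 and 373 genes were called, and with replicate 2 left out of every group 212 and 268.

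**Figure D2:**
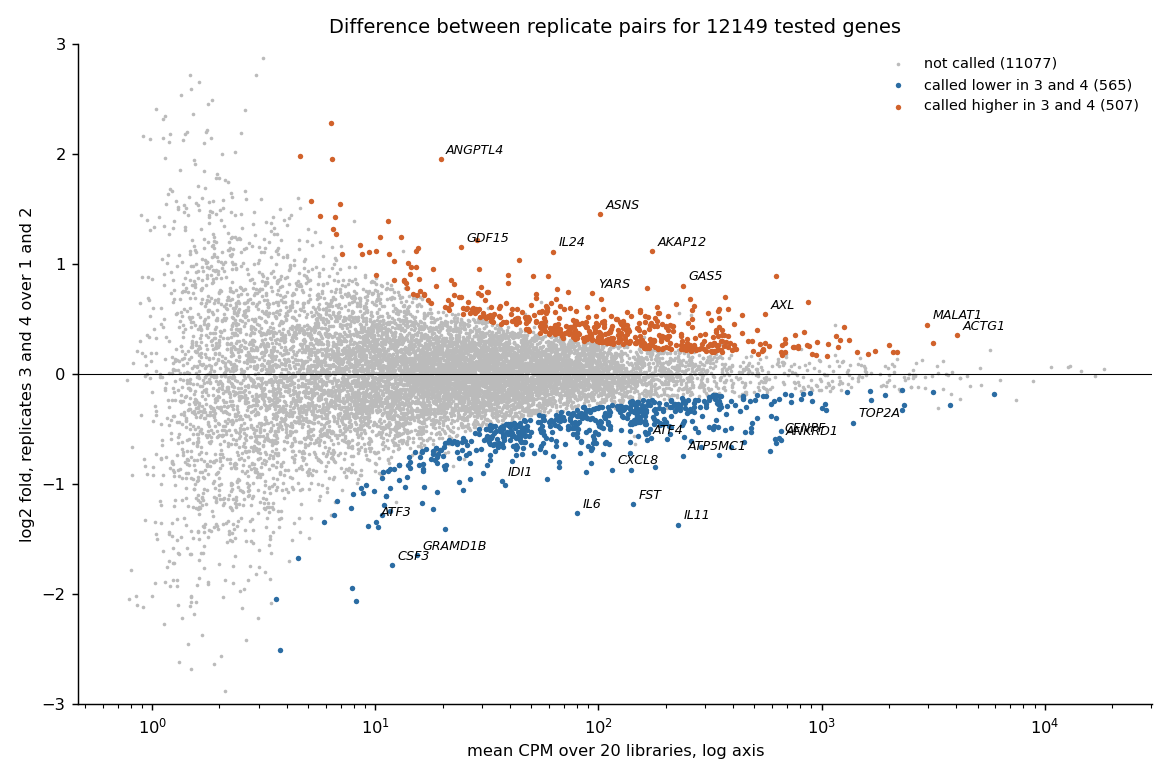
Log2 difference between the pairs (vertical) against mean CPM over 20 libraries (horizontal, log axis) for 12149 tested genes, with 10 genes beyond a log2 difference of 3 not drawn. Orange points are the 507 genes called higher in replicates 3 and 4, blue points the 565 called lower and grey points the rest; called genes lie on both sides of 0 across the CPM range, with ANGPTL4 and ASNS near the top and CSF3 and IL11 near the bottom.

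Among the genes furthest on the higher side was ANGPTL4, a secreted inhibitor of lipoprotein lipase induced by fasting signals, hypoxia and TGF-beta. It ran from 5.03 through 8.49 to 10.9 CPM in replicates 1 and 2 and from 15.2 through 29.4 to 48.0 in replicates 3 and 4, a log2 difference of 1.96 ± 0.21. All 5 groups were apart with no overlap. IL24, a cytokine of the IL-10 family, had 26.8, 40.3 and 46.3 CPM against 64.7, 79.8 and 130.1, and 1.11 ± 0.12, also with no overlap. GDF15, a stress-induced hormone of the TGF-beta superfamily, differed by 1.15 ± 0.20 and was apart in 4 groups. The rest of the 12 largest were HIF1A-AS3 (1.39 ± 0.32), the semaphorin receptor PLXNA2 (1.24 ± 0.26), RGS4 (1.24 ± 0.30), the decoy TRAIL receptor TNFRSF10D (1.22 ± 0.19), GALNT6 (1.15 ± 0.25), TAGLN (1.12 ± 0.30), MGLL (1.12 ± 0.24), ASNS and AKAP12. HIF1A-AS3 lies antisense to HIF1A, and no source used here gives the strand setting of the counting, so reads of the 2 genes cannot be told apart.

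With the same limits (called, a mean CPM of 10 or more, and the same sign in 5 groups), the largest difference on the lower side was that of CSF3, which encodes the granulocyte growth factor G-CSF. Its CPM was 4.35, 14.9 and 34.004 (lowest, median, highest) in replicates 1 and 2 and 0.997, 3.96 and 16.98 in replicates 3 and 4, and the log2 difference was −1.74 ± 0.30. Values of the 10 and 10 overlapped, since CSF3 also moved between groups, but 4 of 5 groups were apart. IL6 had 69.4, 114 and 153 CPM against 23.2, 44.3 and 84.6 and −1.26 ± 0.12, apart in all 5 groups. The other genes of the 12 largest lower differences were GRAMD1B (−1.65 ± 0.29), TMEM19 (−1.41 ± 0.21), MSRB1, a methionine sulfoxide reductase (−1.39 ± 0.32), ATF3 (−1.34 ± 0.32), PTGS2, the inducible cyclooxygenase COX-2 (−1.28 ± 0.31), HBP1 (−1.25 ± 0.29), AVPI1 (−1.23 ± 0.24) and EFNA1 (−1.19 ± 0.31), with IL11 and FST.

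Of 21 tested genes of tRNA charging, 10 were called higher in replicates 3 and 4 and 0 lower, with a median log2 difference of 0.22, against −0.0006 over all tested genes. Without replicate 1 or 2 of every group 6 were higher. The summed CPM of the list was 3270 to 3678 in replicates 1 and 2 and 3639 to 4650 in replicates 3 and 4, and the pairs were apart in all 5 groups. YARS, the tyrosyl-tRNA synthetase, ran from 47.1 through 71.3 to 104 CPM in replicates 1 and 2 and from 81.3 through 116 to 160.5 in replicates 3 and 4 (0.73 ± 0.10). GARS, the glycyl enzyme, had 105, 142 and 189 against 167, 215 and 268 (0.61 ± 0.08). Both overlapped across treatments but were apart inside each group. AARS (0.60 ± 0.12), SARS (0.48 ± 0.08), LARS (0.42 ± 0.09), MARS (0.39 ± 0.10), XPOT, which exports tRNA from the nucleus (0.39 ± 0.11), CARS, TARS and EPRS were also called, while KARS, DARS, FARSB and RARS lay between −0.03 and 0.07.

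Of 15 tested enzymes of amino acid and one-carbon synthesis, 4 were called higher and 0 lower (median 0.29). The count was 2 without any 1 of the libraries untreated replicate 1, untreated replicate 3, 54 °C replicate 1 or 54 °C replicate 4, and 1 without replicate 3 of every group. Besides ASNS these were PSAT1 (0.46 ± 0.10) and MTHFD1L (0.41 ± 0.14), of serine and folate metabolism, and the proline enzyme PYCR1 (0.35 ± 0.11), whose call was lost without 1 library in 7 of 20 cases. PHGDH, the first enzyme of serine synthesis, had 0.76 ± 0.40 and was not called, and MTHFD2 and SHMT2, mitochondrial folate enzymes, had 0.06 ± 0.11 and 0.07 ± 0.10. Among 12 amino acid transporters, 5 were higher and 1 lower (median 0.43). The higher members were the cystine carrier SLC7A11 (0.50 ± 0.10), the arginine carrier SLC7A1 (0.47 ± 0.08), the glutamine carriers SLC1A5 (0.44 ± 0.08) and SLC38A1 (0.41 ± 0.09), and SLC3A2 (0.30 ± 0.07), the heavy chain that several carriers share. SLC38A2, which amino acid starvation induces, was the one on the lower side (−0.69 ± 0.11). The count of higher transporters was 5 in heated samples alone and 0 in unheated samples alone, which were fewer.

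Among the transcription factors and feedback genes of the same response some were lower and some higher. ATF4 mRNA ran from 167 through 191 to 244 CPM in replicates 1 and 2 and from 109 through 128 to 161 in replicates 3 and 4, with no overlap, and a log2 difference of −0.60 ± 0.08. Of 17 tested genes of the list 3 were higher, 6 lower and 8 not called (median −0.59), and the summed CPM overlapped in 2 of 5 groups. CHAC1, which degrades glutathione (−2.51 ± 0.70), ATF3, DDIT3, the factor CHOP (−0.87 ± 0.27), CEBPB (−0.85 ± 0.11) and DDIT4, an inhibitor of mTORC1 (−0.59 ± 0.11), were lower with ATF4. EIF4EBP1, a translation repressor (0.89 ± 0.13), GDF15 and PPP1R15A, the eIF2 phosphatase subunit GADD34 (0.41 ± 0.08), were higher. TRIB3, ATF5 and SESN2 had 0.29 ± 0.24, −0.06 ± 0.18 and −0.69 ± 0.25 and were not called. Counts of mRNA do not show the amount of ATF4 protein.

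Of 34 tested genes of mitosis and the G2/M phase, 27 were called lower in replicates 3 and 4 and 0 higher, with a median of −0.44. Without replicate 3 of every group 17 were lower. Their summed CPM was 7139 to 8303 in replicates 1 and 2 and 5423 to 6204 in replicates 3 and 4, with no overlap. In bulk RNA, fewer dividing cells and less of these mRNAs per cell cannot be told apart. CENPF, a kinetochore protein of the G2/M phase, had 563, 758 and 939.5 CPM against 392, 523 and 594 (−0.58 ± 0.06). PTTG1, the separase inhibitor securin, had 405.5, 453 and 526 against 262, 320.5 and 405.2 (−0.49 ± 0.07). The ranges of PTTG1 met without crossing, and both genes were apart in 5 of 5 groups. The mitotic kinesin KIF20A had the largest difference of the list (−1.005 ± 0.15), cyclin A2 (CCNA2) had −0.72 ± 0.10 and topoisomerase TOP2A −0.44 ± 0.06. MKI67, which encodes the proliferation antigen Ki-67, differed by 0.03 ± 0.08 and CDC20 by −0.07 ± 0.10, neither of them called. In the list of DNA replication and S phase 8 of 35 were lower and 0 higher (median −0.19; 4 lower without replicate 2), among them the helicase subunits MCM5 (−0.72 ± 0.13), MCM2 (−0.49 ± 0.10) and MCM3 (−0.33 ± 0.09), the ribonucleotide reductase RRM2 (−0.47 ± 0.08) and the transcription factor E2F1 (−0.50 ± 0.12).

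Of 26 tested genes of ribosome biogenesis, 11 were higher in replicates 3 and 4 and 0 lower (median 0.28; 2 higher without replicate 2), led by the processome protein RRP12 (0.83 ± 0.16), RRP9 (0.48 ± 0.13), NOP16 (0.47 ± 0.09) and nucleolin, NCL (0.35 ± 0.05). In heated samples alone 6 of the list were higher, and in unheated samples alone 1. Of 82 ribosomal proteins 5 were higher and 10 lower (median −0.02), but 20 were lower without the single library 54 °C replicate 4, and 3 were higher without 50 °C replicate 2. Without replicate 3 of every group 3 were lower. Among them were RPL22L1, the paralog of RPL22 (0.55 ± 0.07), RPL23A (−0.29 ± 0.04) and RPL24 (−0.33 ± 0.06). Host transcripts of small nucleolar RNAs, a list added after its members' values were seen, had 8 of 27 higher and 0 lower. In GAS5, a host gene whose spliced RNA is degraded during translation, CPM ran from 128 through 169 to 253 and from 242 through 279.9 to 457, with all 5 groups apart (0.80 ± 0.08). SNHG32 (0.70 ± 0.07) and ZFAS1 (0.66 ± 0.06) were higher as well, and ZFAS1, annotated as an antisense gene, carries the same doubt on strand.

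**Figure D3:**
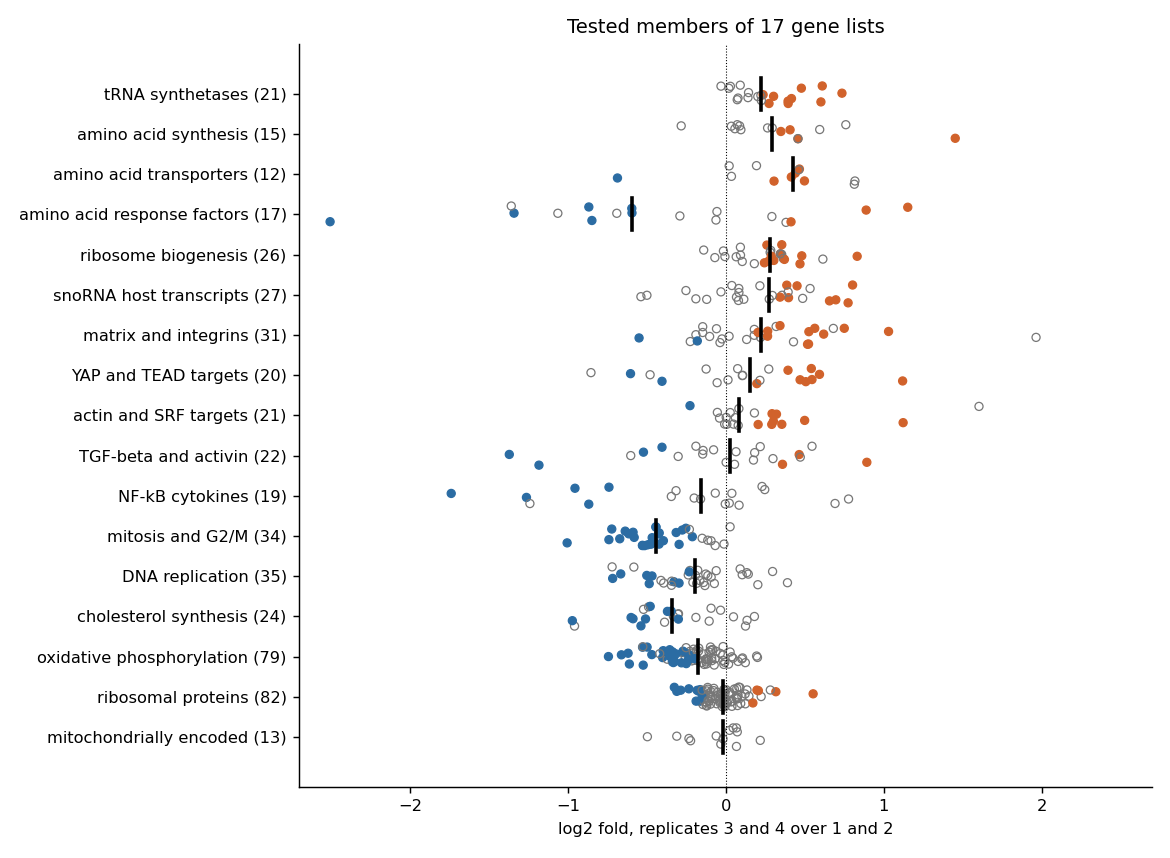
Log2 difference between the pairs (horizontal) for the tested members of 17 gene lists (vertical, number tested in brackets). Filled points were called (orange higher, blue lower in replicates 3 and 4), open points were not, and the black bar is the list's median; the bar of mitosis and G2/M stands at −0.44 with 27 of 34 members called lower, and that of the tRNA synthetases at 0.22 with 10 of 21 called higher.

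In the list of TGF-beta and activin genes, ligands, inhibitors and targets differed in direction: 3 of 22 were higher and 4 lower (median 0.03). The shares over all tested genes were 4.17% and 4.65%. IL11 and FST were lower with the receptor TGFBR1 (−0.52 ± 0.16) and the ligand TGFB2 (−0.40 ± 0.09). The targets TGFBI (0.46 ± 0.08) and PMEPA1 (0.36 ± 0.07) were higher. INHBA, the activin A subunit that follistatin binds, had 0.003 ± 0.07, and BMP4, a ligand of the sister pathway, −0.54 ± 0.08.

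Of 19 tested genes of the NF-kB list 5 were lower in replicates 3 and 4, 0 higher and 14 not called (median −0.16), and their summed CPM was lower in both libraries 3 and 4 in all 5 groups. CXCL8, the neutrophil chemokine IL-8, had 76.3, 142 and 270.0 CPM against 49.9, 79.99 and 149, overlapping across treatments and apart in every group (−0.87 ± 0.09). CSF3, IL6, CXCL1 (−0.74 ± 0.15) and BIRC3, an inhibitor of apoptosis (−0.96 ± 0.13), completed the 5. NFKBIA and ICAM1, feedback and adhesion targets, had 0.02 ± 0.09 and 0.08 ± 0.15, and TNFAIP3, also a feedback gene, 0.78 ± 0.28, none of them called. Of 12 gp130 genes 3 were lower: IL11, IL6 and BCL3 (−0.88 ± 0.24, lost without 1 library). The receptor IL6ST had 0.16 ± 0.08 and STAT3 0.03 ± 0.10. Of 20 interferon-stimulated genes 1 was higher and 1 lower, close to the shares of 4.17% and 4.65% over all tested genes.

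In the list of YAP and TEAD targets 8 of 20 were higher and 2 lower (median 0.15). Higher were AKAP12, FJX1 (0.59 ± 0.10), the receptor kinase AXL (0.55 ± 0.06), tissue factor F3 (0.54 ± 0.06), NT5E (0.51 ± 0.08), CCN2 (0.47 ± 0.08), CRIM1 (0.39 ± 0.08) and CCN1 (0.20 ± 0.06). ANKRD1, a muscle-type stress protein and common YAP readout, was lower (−0.60 ± 0.06), with TGFB2. Actin and SRF targets had 8 of 21 higher and 1 lower (median 0.08; 4 higher without replicate 2), among them ACTG1 (0.35 ± 0.05) and TPM4 (0.29 ± 0.05), while ACTB had 0.08 ± 0.05. Of 31 matrix and integrin genes 11 were higher and 2 lower (median 0.22; 7 higher without replicate 1 or 3), with the integrin ITGB4 (1.03 ± 0.28), TIMP3 (0.75 ± 0.13), the urokinase receptor PLAUR (0.62 ± 0.07) and laminin LAMB3 (0.56 ± 0.08) high and urokinase itself, PLAU (−0.55 ± 0.08), low.

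In the AP-1 and immediate-early list 3 of 21 were higher, 3 lower and 15 not called (median 0.02). Over all tested genes 4.17% were higher and 4.65% lower. FOSL1 was higher (0.64 ± 0.08), and FOSL2 (−0.68 ± 0.10), JUND (−0.49 ± 0.10) and ATF3 were lower, whereas JUN (0.23 ± 0.10) and FOS (−0.71 ± 0.62) were not called. Of 19 genes of EGFR signalling 2 were higher, the receptor EGFR (0.45 ± 0.08) and FOSL1, and 3 lower: the ligands EREG (−0.89 ± 0.15) and AREG (−0.35 ± 0.08), and ETV5 (−0.47 ± 0.15).

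Of 24 genes of cholesterol synthesis 9 were lower in replicates 3 and 4 and 0 higher (median −0.34), a count that fell to 2 without replicate 1 and to 4 in heated and 2 in unheated samples alone, and the summed CPM was 1063 to 1180 in replicates 1 and 2 and 819.6 to 1008 in replicates 3 and 4. IDI1, the isopentenyl diphosphate isomerase, had 25.7, 50.7 and 61.8 CPM against 16.4, 26.7 and 31.5, apart in each group (−0.97 ± 0.15). FDFT1 (−0.60 ± 0.16), HMGCS1 (−0.59 ± 0.16) and INSIG1 (−0.54 ± 0.14) were among the others. Of 79 nuclear-encoded subunits of oxidative phosphorylation 27 were lower and 0 higher (median −0.18), with 12 lower without replicate 3. ATP5MC1, a subunit of the ATP synthase rotor, had 257, 297 and 351 CPM against 128, 185 and 208, with no overlap (−0.74 ± 0.07), COX7B had −0.66 ± 0.07 and NDUFS5 −0.53 ± 0.06. The 13 mitochondrially encoded mRNAs had 0 called and a median of −0.02.

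Transcript length and GC content moved with the comparison. Genes called higher had a median transcript length of 3918 bases and those called lower 2888, against 3596 for all, and of the shortest quartile of genes 7.1% were lower and 3.23% higher. Median GC content was 49.7% in the higher genes and 44.5% in the lower, against 47.9% for all, and of the quartile lowest in GC 6.97% were lower and 2.94% higher. With offsets for both together, a check added after seeing the data, 16 subunits of oxidative phosphorylation were lower in place of 27. Ribosomal proteins then had 12 higher and 6 lower in place of 5 and 10, mitosis 23 lower in place of 27, and the tRNA list kept its count of 10. IL11, ASNS, FST and AKAP12 were called there too. The part of either alone was not tested.

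Other programs were mixed or small. Over all tested genes 4.17% were called higher and 4.65% lower. NRF2 targets had 4 of 17 higher and 0 lower: SRXN1 (0.56 ± 0.09), GCLM (0.53 ± 0.10), SLC7A11 and TXNRD1 (0.37 ± 0.06), all antioxidant or cystine genes. The higher count was 4 in heated samples alone and 0 in unheated samples alone, which were fewer. In untreated cells SRXN1 had 0.10 ± 0.17 and GCLM −0.05 ± 0.21. With particles alone, the other unheated group, they had 0.42 ± 0.17 and 0.59 ± 0.21. Cytosolic and mitochondrial chaperones had 5 of 23 higher (3 without replicate 2 or 3), with mitochondrial HSPA9 at 0.58 ± 0.07 and constitutive HSPA8 at 0.43 ± 0.05, and 2 lower, HSPE1 (−0.49 ± 0.07) and HSPB1 (−0.25 ± 0.07). HSPA1B was called at 0.44 ± 0.10 and its near-identical copy HSPA1A was not (0.25 ± 0.17), so the split of reads between them is uncertain. In glycolysis the hexokinase HK2 was higher (0.90 ± 0.16) and PGAM1 lower (−0.29 ± 0.06), with 3 of 22 higher and 1 lower. HIF1A mRNA was lower (−0.62 ± 0.10), and of 19 hypoxia-inducible genes 2 were higher and 3 lower. Of 22 lysosome and autophagy genes 3 were higher, MAP1LC3B (0.68 ± 0.10), CTSD (0.42 ± 0.07) and PSAP (0.40 ± 0.07).

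Line markers were high in both pairs, with summed CPM of 8761 to 9574 in replicates 1 and 2 and 9465 to 11136 in replicates 3 and 4 over 16 tested genes such as VIM, CD44 and AXL. Markers of other cell types were mostly too low to test: of 10 macrophage, 10 lymphocyte and 10 fibroblast genes 2 each had enough counts to be tested, and PTPRC, the pan-leukocyte marker, had 13 counts in all. LYZ, CD4 and PDGFRA had 0. Summed CPM of the tested macrophage genes was 6.86 to 23.03 in replicates 1 and 2 and 3.37 to 14.5 in replicates 3 and 4, and that of the fibroblast genes 3.52 to 15.5 and 1.07 to 12.3, both with overlap. The tested lymphocyte genes, IL7R and CD8A, summed to 136 to 194 CPM and 84.7 to 122.8 and were lower in all 5 groups, the luminal genes to 126 to 237 and 120.1 to 174, and the basal keratinocyte genes to 155 to 212 and 159.6 to 291. The part of these genes in the other results was not tested. IL7R, listed for lymphocytes, was expressed at a mean of 138 CPM and was lower in replicates 3 and 4 (−0.72 ± 0.09). Of 5 luminal breast genes KRT19 was lower (−0.52 ± 0.10), and ESR1, the estrogen receptor, had 22 counts in all.

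Library depth also went with the pairs. Totals ran from 2944517 to 7710977 counts in replicates 1 and 2 and from 2401180 to 6304912 in replicates 3 and 4, with the lower mean in replicates 3 and 4 in 4 of 5 groups. After all libraries were thinned to 2401179 counts, 422 genes were called higher and 497 lower. Nuclear noncoding RNAs, listed as a sign of RNA quality, took 0.33% of counts on average in replicates 1 and 2 and 0.422% in replicates 3 and 4. The mean was higher in replicates 3 and 4 in all 5 groups, with MALAT1 at 0.45 ± 0.09. Of 9 tested members of the list 2 were called higher and 7 were not called, with a median log2 difference of 0.04. Mitochondrial mRNAs took 11.7% and 11.9%. The part of RNA makeup in the gene differences was not tested.

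Taken over many genes, the difference was spread over the treatments. Treatment-adjusted values of 8181 genes at a mean CPM of 10 or more had 15.8% of their residual sum of squares along the direction of the pairs, 5.24% along replicate 2 against 1 and 6.66% along replicate 4 against 3, where an average over the 15 residual directions is 6.67%. Genes called with 1 group left out were then followed in the group left out: between 85.3% and 92.5% of the higher genes were positive there, and between 87.4% and 93.3% of the lower genes were negative, beside 48.2% to 50.1% of all genes positive. The lowest shares were those of the untreated and 54 °C groups. The division itself was known from all 20 libraries, so these shares describe its spread and do not test it.

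Taken one treatment group at a time, with 2 libraries against 2, 148 genes were higher and 185 lower in untreated cells, 2.74% of those tested. With particles alone the counts were 21 and 25 (0.379%), at 46 °C 63 and 53 (0.955%), at 50 °C 61 and 77 (1.14%) and at 54 °C 57 and 73 (1.07%). The spread of log2 differences over genes at a mean CPM of 10 or more was also widest in untreated cells, with an SD of 0.53, and 0.45 to 0.48 elsewhere. CSF3 ranged from −2.74 at 46 °C to −0.53 at 54 °C, and HK2 from 0.32 with particles alone to 1.77 in untreated cells. ATF4, GARS and CTSD stayed near their averages. The edgeR SE of CSF3 was 0.76 at 46 °C and 0.59 at 54 °C. In the test of dependence on treatment given below, CSF3 and HK2 were not called (edgeR quasi-likelihood interaction adjusted p = 0.888 for CSF3).

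**Figure D4:**
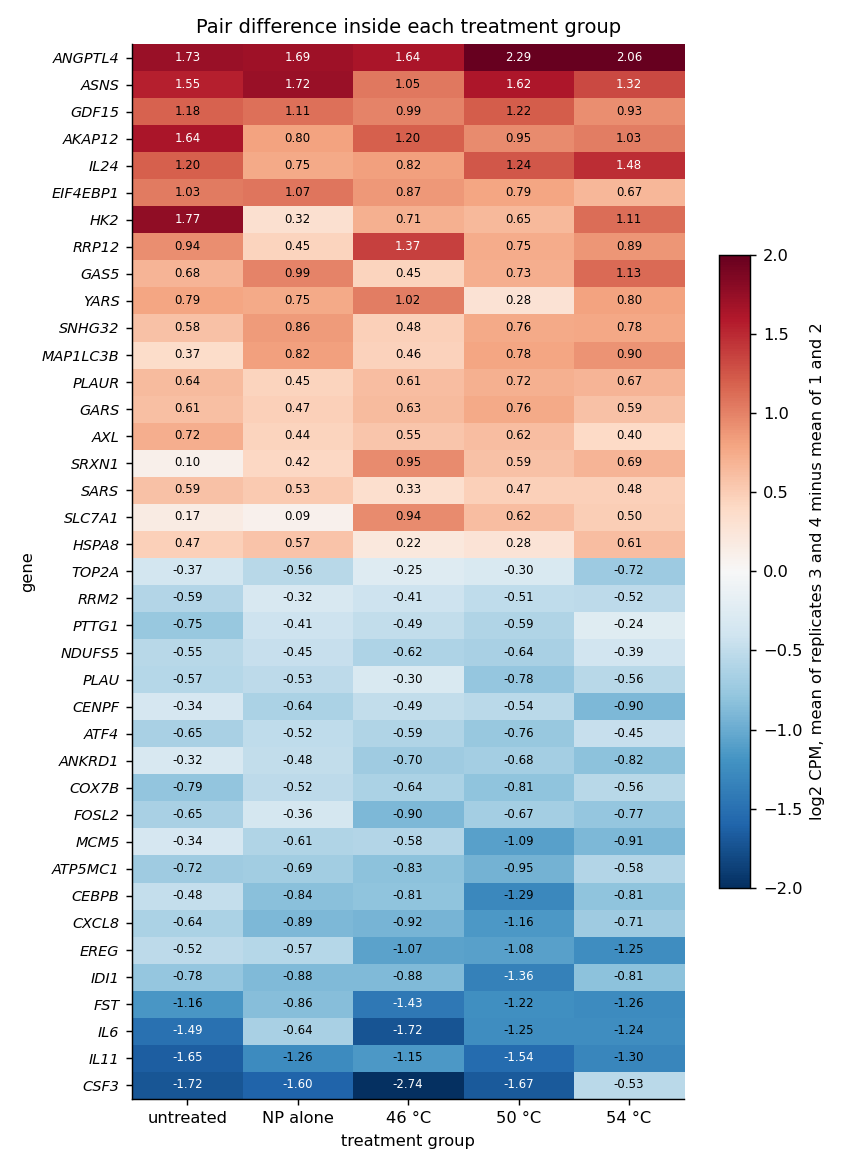
Pair difference (log2 CPM, mean of replicates 3 and 4 minus mean of replicates 1 and 2; color saturates at 2, the number in each cell is the value) for 39 named genes (rows) in the 5 treatment groups (columns). Every gene shown keeps its sign in all 5 columns; IL11 runs from −1.65 in untreated cells to −1.15 at 46 °C, and ASNS from 1.05 at 46 °C to 1.72 with particles alone.

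Whether the pair difference depended on treatment is a question that the choice of pairs did not use, and it was tested. An edgeR quasi-likelihood test of the interaction over all 5 groups called 10 genes (0.0823% of 12149), with 858 at an unadjusted p under 0.05. NAMPT, EIF5A and MT-ND6 had the smallest adjusted p, 0.00218 each. The other 7 were TMEM258, RPL23, CLIC1, NRAS, RPL27, RPL35A and ARID4B (edgeR adjusted p = 0.0211 to 0.0411), 3 of them ribosomal proteins. The number of calls ran from 4, without untreated replicate 4, to 30, without untreated replicate 2, and DESeq2 called 83. With the untreated group left out 1 gene was called. No gene of the 10 was called in the comparison between the pairs itself, and IL11, ASNS, FST and AKAP12 had edgeR interaction adjusted p of 0.874, 0.879, 0.946 and 0.602.

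NAMPT encodes the rate-limiting enzyme of NAD salvage. In untreated cells it stood at 515 and 481 CPM in replicates 1 and 2 and at 375 and 336 in replicates 3 and 4, and with particles alone at 475 and 421 against 414 and 370.2. At 50 °C the order was opposite, with 560.2 and 525 against 813 and 763, and at 46 °C 560.3 and 507 stood against 691 and 575. Replicates 3 and 4 were the lower pair in both unheated groups and the higher pair in all 3 heated groups. The heated-minus-unheated contrast of the pair difference was 0.66 ± 0.11 on the log2 scale (edgeR adjusted p = 0.000338), 1 of 2 genes called among 12149 (0.0165%; 872 at an unadjusted p under 0.05).

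MT-ND6, the complex I subunit read from the light strand of mitochondrial DNA, was the other. Replicates 1 and 2 had 132 and 141 CPM in untreated cells and 234 and 227 with particles alone, and replicates 3 and 4 had 65.6 and 29.4, and 95.8 and 105. At 46 °C the values were 49.7 and 57.6 against 37.2 and 59.1, and at 50 °C 148 and 99.5 against 93.9 and 121, overlapping in both, with pair differences of −0.15 ± 0.26 and −0.20 ± 0.24. At 54 °C they were 24.1 and 20.9 against 29.1 and 42.3, so 1 of 3 heated groups had the opposite order. The heat contrast was 1.46 ± 0.23 (edgeR adjusted p = 0.000338), and that of 54 °C against particles alone 1.86 ± 0.36 (edgeR adjusted p = 0.0349), the single gene called of 12149 (0.00823%; 521 at an unadjusted p under 0.05). That call was not made without particles-alone replicate 2. Strand matters for MT-ND6, which has genes on the opposite strand beside it, and the strand setting was not given. Without the untreated group 0 genes were called for heat, with the particles-alone group as the only unheated one.

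EIF5A, a translation factor modified to hypusine, had 301 and 332 CPM in untreated replicates 1 and 2 and 566 and 506 in replicates 3 and 4. In the other 4 groups its pair difference lay between −0.35 ± 0.13 and −0.08 ± 0.13, against 0.76 ± 0.13 in untreated cells. Its heat contrast was −0.53 ± 0.12 and was not called (edgeR adjusted p = 0.0732). The 3 other contrasts had 0 genes called by edgeR: particles alone against untreated (889 at an unadjusted p under 0.05), and 46 °C (660) and 50 °C (531) against particles alone. DESeq2 called 16, 9 and 3 genes in these and limma-voom 8, 0 and 1.

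**Figure D5:**
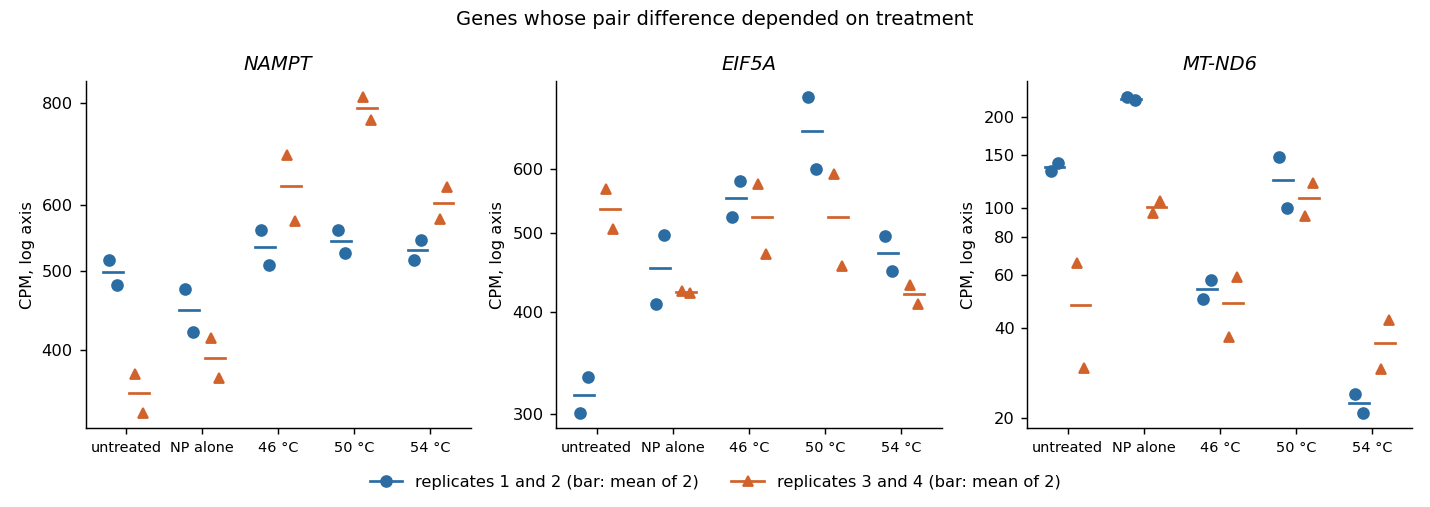
CPM on a log axis (vertical) of NAMPT, EIF5A and MT-ND6 in each library by treatment group (horizontal). Circles are replicates 1 and 2, triangles replicates 3 and 4 and bars the mean of 2; for NAMPT the triangles lie below the circles in untreated cells (375 and 336 against 515 and 481) and above them at 50 °C (813 and 763 against 560.2 and 525).

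Inside the pairs little was called. Replicate 2 against replicate 1 had 0 genes by edgeR over 12149 (325 at an unadjusted p under 0.05, smallest adjusted p = 1), and replicate 4 against replicate 3 had 0 (651, smallest adjusted p = 0.233). By limma-voom these were 0 and 1. Each had 5 libraries against 5, where the comparison between the pairs had 10 against 10, so the counts of calls are not on equal terms.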

How the data were processed

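The 20 libraries were made with the QuantSeq 3' FWD kit, per the labels' protocols. The deposited table holds the authors' estimated counts per gene, and the submitters' processing notes name STAR, Salmon and the build GRCh38; versions, annotation and strand setting were not stated in the sources used. Estimated counts were rounded to whole numbers, and genes were kept by edgeR's filterByExpr (count 10, total 15). Pairs were compared by edgeR 4.0.16's robust quasi-likelihood test (R 4.3.3, TMM factors, prior count 2 for log2 values, Benjamini-Hochberg adjusted p threshold 0.05) with treatment as covariate. Interactions were tested on the means of the 10 pair-by-group cells, and replicate 2 against 1 and 4 against 3 on a factor of 4 numbers. Scripts were tested on simulated data.

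The pairs, their 4 marker genes and the 42 gene lists were chosen with earlier results of these data known, and the list of small nucleolar RNA hosts after its values were seen. Named were the 4 markers, the 12 largest differences each way among genes called at a mean CPM of 10 or more with the same sign in 5 groups, and up to 3 genes with the smallest p per list of 5 or more tested genes and per interaction test. Other list members were named for their role after their values were seen. Alternatives were other size factors, no filter and a CPM filter, DESeq2 1.42.0, limma-voom 3.58.1, a replicate block, libraries, groups or replicate numbers left out, and, chosen after seeing the data, thinning, offsets for length and GC, and interactions without untreated cells. Figures were drawn with matplotlib 3.10.9 (Python 3.11.15). Library totals of 2401180 to 7710977 counts set the precision of each value.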

Additional observations from a re-analysis of the deposited data

Results flagged for a closer look

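The pair difference differed between treatment groups by the edgeR quasi-likelihood interaction test for 10 genes. NAMPT, EIF5A and MT-ND6 each had an edgeR adjusted p of 0.00218 over the 5 groups. The difference between heated and unheated samples was 0.66 on the log2 scale for NAMPT and 1.46 for MT-ND6, and that between 54 °C and particles alone was 1.86 for MT-ND6. With each of the 20 libraries left out in turn, NAMPT and MT-ND6 kept their 5-group call, at edgeR adjusted p of at most 0.0404 and 0.0465, and EIF5A lost it in 2 cases.

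TMEM258, a subunit of the oligosaccharyltransferase, had an edgeR interaction adjusted p of 0.0211, and RPL23, the chloride channel protein CLIC1 and the GTPase NRAS had 0.0233 each. RPL27 had 0.0244, RPL35A 0.0308 and the chromatin protein ARID4B 0.0411 (edgeR). Each of these 7 lost its call without 1 library in 4 to 9 of 20 cases, with edgeR adjusted p up to 0.483.

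In particles-alone cells, EIF5A stood at 498 CPM in replicate 2, apart from 409, 424 and 422 in replicates 1, 3 and 4. It was the 1 value set of 110 tested that met Dixon's 95% limit for 4 samples, where chance marks about 1 in 20. No cause was tested for any of these.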

How the results depend on the processing

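None of the alternatives turned the direction of the pair difference in the 109 named genes called between the pairs. NAMPT, EIF5A and MT-ND6, named for their interaction, were not part of that check. List counts could turn: ribosomal proteins went from 5 higher and 10 lower to 12 and 6 with length and GC offsets. Without the untreated group they had 9 higher and 6 lower. Against 507 genes higher and 565 lower between the pairs, 334 and 373 were called without the 50 °C group, 334 and 320 in heated samples only, and 92 and 150 in unheated samples only, each on fewer samples. With 1 library or 1 replicate number left out the counts ran from 212, without replicate 2, to 488 higher and from 268 to 565 lower. Replicate 1, 2 or 3 left out of every group gave 268, 212 or 241 higher and 300, 268 or 303 lower. Each other setting stayed within 1.5 times of both counts. Of 109 named and called genes, 99 kept their call without each of 20 libraries. BCL3, BST2, CREB3L2, HLA-E, ISG20, MT1E, MT1X, MXI1, PYCR1 and TXNIP lost it at least once. Larger cuts cost more calls: 52 of the 109 were kept in unheated samples only and 95 in heated samples only. With replicate 1, 2, 3 or 4 left out of every group 91, 85, 92 or 94 were kept.

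Interaction calls over the 5 groups numbered 10, and were 50 with no filter, 83 by DESeq2, 68 by limma-voom, and 1 without the untreated group. The heat contrast had 2, and 11, 17, 7 and 0 under those 4 settings, and 4 with length and GC offsets. Particles against untreated had 0, and 12 with no filter, 16 by DESeq2, 8 by limma-voom, 1 with library totals only and 1 with offsets. At 46 °C these were 0, with 1 (no filter) and 9 (DESeq2). At 50 °C they were 0, with 7 (no filter), 3 (DESeq2) and 1 each by limma-voom, offsets and thinning. At 54 °C they were 1, with 3 (no filter), 4 (DESeq2) and 2 (limma-voom). With 1 library left out, calls ranged from 4 to 30 over the 5 groups and from 2 to 12 for heat, the latter without particles-alone replicate 4. Particles against untreated ranged from 0 to 7 (without untreated replicate 2), 46 °C from 0 to 4 (without its replicate 3), 50 °C from 0 to 3 (without particles-alone replicate 1) and 54 °C from 0 to 10 (without its replicate 3). Replicate 2 against 1 had 4 calls with no filter, and replicate 4 against 3 had 11 with no filter and 1 by limma-voom. The log2 difference of library totals, −0.278, ranged from −0.348 to −0.201 with 1 group left out. The cause was not tested.

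With the replicate number as a replicate block 504 genes were called higher and 566 lower. Across genes, each of 20 libraries had its highest mean correlation of deviations with its own pair, and 13 with its own number, so the numbers were not taken to pair samples. Depth limits what could be called among rare transcripts: 24452 of 36601 genes were too low to test.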

Other observations

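Of 20 tested chaperones of the endoplasmic reticulum and its stress response, 2 were higher in replicates 3 and 4, HSPA5, the chaperone BiP (0.31 ± 0.05, log2 and SE), and HSP90B1 (0.25 ± 0.06), and 1 was lower, CREB3L2 (−0.47 ± 0.13). The summed CPM of the 20 genes was higher in both libraries 3 and 4 in all 5 groups. The median log2 difference of the list was 0.06, with 12 of 20 positive. Both ferritin genes, FTH1 (0.20 ± 0.05) and FTL (0.18 ± 0.05), were higher among 10 genes of iron handling, with 0 lower. Among 5 metallothioneins MT1E (0.18 ± 0.06) and MT1X (0.46 ± 0.15) were higher, though MT1E lost its call without 1 library in 15 of 20 cases and MT1X in 10. In untreated cells MT1E differed by −0.25, with both libraries 3 and 4 below 1 and 2. Reads of such close copies may be split between them. Of 14 genes of fatty acid synthesis the desaturase FADS2 (−0.54 ± 0.15) and the elongase ELOVL6 (−0.43 ± 0.12) were lower and 0 higher.

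Of 20 p53 targets 2 were higher, GDF15 and ZMAT3 (0.70 ± 0.19), and 1 lower, the apoptosis gene BBC3 (−1.03 ± 0.27), with CDKN1A at −0.30 ± 0.11 and MDM2 at −0.002 ± 0.16 not called. Class I antigen presentation had 2 of 15 higher, HLA-B and HLA-E, and 1 lower, the proteasome subunit PSMB10 (−0.76 ± 0.20). HLA-E lost its call without 1 library in 3 of 20 cases. Over all tested genes 4.17% were called higher and 4.65% lower, so nothing is read from list counts of 1 or 2. Of 7 MondoA genes TXNIP was higher (0.24 ± 0.07) and HBP1 lower. Of 10 BMP genes 1 was lower, of 9 nuclear noncoding RNAs 2 were higher, MALAT1 and GAS5, and of 29 replication-dependent histone genes 0 were called. Of 3 tested basal keratinocyte genes ITGB4 was higher, while KRT5, KRT14 and TP63 had 0 counts.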
